A study of Mus musculus with 2 samples.

Results

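The Sox genes encode transcription factors that share an HMG box, the domain with which the founding member, the testis-determining gene Sry, binds DNA. Described here are 10 of them, of 21937 gene features measured, chosen by a list of symbols that used no measured value: Sox1, Sox2 and Sox3 of the SoxB1 group, Sox4 and Sox11 of SoxC, Sox5 and Sox6 of SoxD, and Sox8, Sox9 and Sox10 of SoxE. They are 10 of the 19 Sox genes among the features. Their expression was compared across 16 annotated cell types of E11.5 mouse embryos, where E counts days after fertilization.

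All embryos carried EGFP under CAG, a promoter active in most tissues, linked to a DNA barcode and integrated by the piggyBac transposon. The founder generation was represented by F0_8 and F0_9, each from an embryo whose fertilized egg had been electroporated with mRNA of the transposase mPBase and injected with the donor DNA, so that a founder can hold cells with different integrations. The F1 generation was represented by F1_1, from 1 embryo, and by F1_mix, an artificial mosaic of cells from 2 F1 embryos that counts here as 1 sample; the sources used here do not give the cross that produced the F1 embryos, and no suspension without the transgene was analysed here. Whole embryos were dissociated with trypsin and sorted to remove debris, and the 4 suspensions were tagged with lipid-anchored oligos (CellPlex) and run as 1 droplet library.

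Of 6006 deposited barcodes, the 5678 cells in the table of annotated cells were used, 1310 to 1599 per suspension, with 16052917 to 19160116 gene UMIs (unique molecular identifiers, 1 per captured transcript) per suspension and a median of 10880 to 13267 per cell; no barcode occurred in more than 1 suspension. A level is given as UMIs per 10000 gene UMIs of the same cells, and the spread as the range over the 4 suspensions. Intervals of a single value (exact Poisson for levels, exact Clopper-Pearson for shares) cover counting error only. The cell types are the annotation of the study. In 4 of them (Foregut, Midgut, Hepatocyte and Endodermal Progenitor, 1369 cells) the median depth was only 721.5 to 1674 UMIs, with a median of 23.0 to 55.9% mitochondrial UMIs and 31.7 to 48.3% of UMIs from genes over 100 kb; in the 12 other types (4309 cells), called deep here, these values were 10898.5 to 29076, 0.297 to 2.77% and 1.58 to 23.0%. The defining markers of Hepatocyte (Alb, Afp, Apoa1, Ttr) reached only 0.0493 in the cells of that name and those of Midgut (Cdx2, Gata4, Vil1, Hnf4a) 0.0207, while the list of neuron markers reached 29.0 in Midgut. Values in these 4 types are given below with that limit and enter no ratio between types.

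SoxB1 factors keep neural progenitors in a dividing, undifferentiated state, and SoxC factors act later, when a progenitor leaves the cycle and switches on neuronal genes. SoxD factors lack an activation domain of their own and work with partners. Of these partners the best known is Sox9, with which Sox5 and Sox6 drive cartilage matrix genes, and Sox6 also acts in the maturation of red cells. Sox10 marks neural crest and its glial and pigment cell descendants, and Sox8 accompanies Sox9 and Sox10 in several of these tissues.

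The genes lie on 10 chromosomes of GRCm38.p6. The SoxB1 genes are Sox1 (ENSMUSG00000096014) at chr8:12395519-12399555, Sox2 (ENSMUSG00000074637) at chr3:34649995-34652461 and Sox3 (ENSMUSG00000045179) at chrX:60891366-60893430, and the SoxC genes Sox4 (ENSMUSG00000076431) at chr13:28948919-28953699 and Sox11 (ENSMUSG00000063632) at chr12:27334268-27342718. The SoxD genes are Sox5 (ENSMUSG00000041540) at chr6:143828425-144782287 and Sox6 (ENSMUSG00000051910) at chr7:115470872-116040776, and the SoxE genes Sox8 (ENSMUSG00000024176) at chr17:25565893-25570686, Sox9 (ENSMUSG00000000567) at chr11:112782210-112787757 and Sox10 (ENSMUSG00000033006) at chr15:79154913-79164490. Apart from Sox5 and Sox6, which span 954 kb and 570 kb, all are under 10 kb. The 250 bases before the annotated start of Sox1, Sox2, Sox4 and Sox11 are shown because these SoxB1 and SoxC genes differed in opposite directions between neural progenitors and neurons, as described below. The sequences are from RefSeq on GRCm38.p6, 5′ to 3′ on the strand of the gene, with capitals marking GGGCGG (or CCGCCC, the same word on the other strand) and the palindrome CAGCTG.
Sox1, chr8:12395269-12395518, plus strand: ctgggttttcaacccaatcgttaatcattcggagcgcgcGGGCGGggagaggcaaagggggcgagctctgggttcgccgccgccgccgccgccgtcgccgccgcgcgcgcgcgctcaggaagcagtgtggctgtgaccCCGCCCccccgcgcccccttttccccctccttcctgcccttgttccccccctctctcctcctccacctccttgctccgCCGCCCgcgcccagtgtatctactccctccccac
Sox2, chr3:34649745-34649994, plus strand: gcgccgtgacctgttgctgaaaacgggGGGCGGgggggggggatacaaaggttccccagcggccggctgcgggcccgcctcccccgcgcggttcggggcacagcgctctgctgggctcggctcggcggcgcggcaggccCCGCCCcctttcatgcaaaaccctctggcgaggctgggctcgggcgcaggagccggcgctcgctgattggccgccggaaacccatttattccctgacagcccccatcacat
Sox4, chr13:28953700-28953949, minus strand: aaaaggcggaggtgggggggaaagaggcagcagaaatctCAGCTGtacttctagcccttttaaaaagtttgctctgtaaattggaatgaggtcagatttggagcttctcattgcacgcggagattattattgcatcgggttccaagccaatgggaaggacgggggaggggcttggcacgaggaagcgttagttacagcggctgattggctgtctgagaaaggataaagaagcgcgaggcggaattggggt
Sox11, chr12:27342719-27342968, minus strand: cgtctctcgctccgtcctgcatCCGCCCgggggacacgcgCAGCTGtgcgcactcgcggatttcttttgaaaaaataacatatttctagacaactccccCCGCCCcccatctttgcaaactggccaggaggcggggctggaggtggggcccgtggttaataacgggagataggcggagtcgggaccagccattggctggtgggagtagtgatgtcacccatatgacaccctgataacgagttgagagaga

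The windows of Sox1 and Sox2 held 71.2% and 72.0% G and C, against a median of 52.4% over 32851 windows of the same length. Those of Sox4 and Sox11 held 50.8% and 58.0%. GGGCGG, searched on both strands, occurred 3 times in the window of Sox1, 2 times in that of Sox2 and 2 times in that of Sox11, and not in that of Sox4; it was present in 32.7% of all windows. CAGCTG, an E-box word, occurred once each in the windows of Sox4 and Sox11 and in neither SoxB1 window, against 13% of all windows. CCAAT was present in all 4 windows and in 33.8% of all windows, and the Sox core ACAAT in none of the 4 and in 27.7% of all. Each word was counted on both strands without regard to the others. A match of letters is a description of the window, not a bound site. The table of promoters held an entry for 7 of the 10 genes.

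Among the SoxB1 genes, Sox2, required in neural progenitors and in the foregut, was highest in Neuronal Progenitor cells. Its level there was 4.15 and 4.47 in the founders F0_8 and F0_9, 4.57 in F1_1 and 3.69 in F1_mix. The mean was 4.22 ± 0.40 (SD, n = 4 suspensions), and values of the 4 suspensions are given in this order throughout. The 4 values lay above every value of the next type, Ependymal Cell, which had 2.22, 1.89, 1.44 and 1.17. Epithelial Cell followed with 1.41, 1.71, 1.57 and 1.57, and Foregut, a type of low depth, with 1.19, 1.47, 1.33 and 1.88; the ranges of Ependymal Cell, Epithelial Cell and Foregut overlapped. CNS Neuron cells held 0.669 to 1.10 and Neuroectoderm/Glia cells 0.0948 to 0.339. In Hematoendothelial Progenitor/Endothelium and Chondrocyte cells the level did not exceed 0.0230 in any suspension.

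Per cell, a Sox2 UMI was found in 93.8% (95% interval 91.6 to 95.6) of 597 Neuronal Progenitor cells, 70.8% of Ependymal Cell, 49.0% of Epithelial Cell and 33.1% of CNS Neuron cells. In endothelium, which lacks Sox2, the share was 1.32% at a median depth of 17279.5 UMIs, against 13388 in Neuronal Progenitor. When each cell was thinned to 5000 UMIs, 81.2% of Neuronal Progenitor and 25.1% of CNS Neuron cells kept a Sox2 UMI.

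Sox1, the SoxB1 gene most restricted to the neural tube, had 461 UMIs in all. Its level in Neuronal Progenitor was 0.574, 0.390, 0.316 and 0.309, and in CNS Neuron 0.142, 0.151, 0.0916 and 0.103. The lowest progenitor value was above the highest neuron value. No Sox1 UMI was found in 151 Epithelial Cell cells, where Sox2 was present, which limits the Sox1 level there to 0.0116 (3 counts over the 4 suspensions). Sox3, on the X chromosome, was also highest in Neuronal Progenitor, at 1.03, 1.18, 1.17 and 1.10. Its levels in Ependymal Cell (0.142 to 0.407) and CNS Neuron (0.151 to 0.326) overlapped each other and lay below the progenitor range. A Sox3 UMI was found in 62.0% of Neuronal Progenitor cells and in 5.96% of Epithelial Cell cells. The 3 SoxB1 genes together thus marked Neuronal Progenitor cells, with a summed level 202 times the median of the 11 other deep types (means over the 4 suspensions, 5.74 against 0.0285; this log2 ratio of 7.66 lay above each of those within single suspensions, 6.92 to 7.53), and Sox2 alone of the 3 had more than 0.1 UMIs per 10000 in Epithelial Cell.

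**Figure D1:**
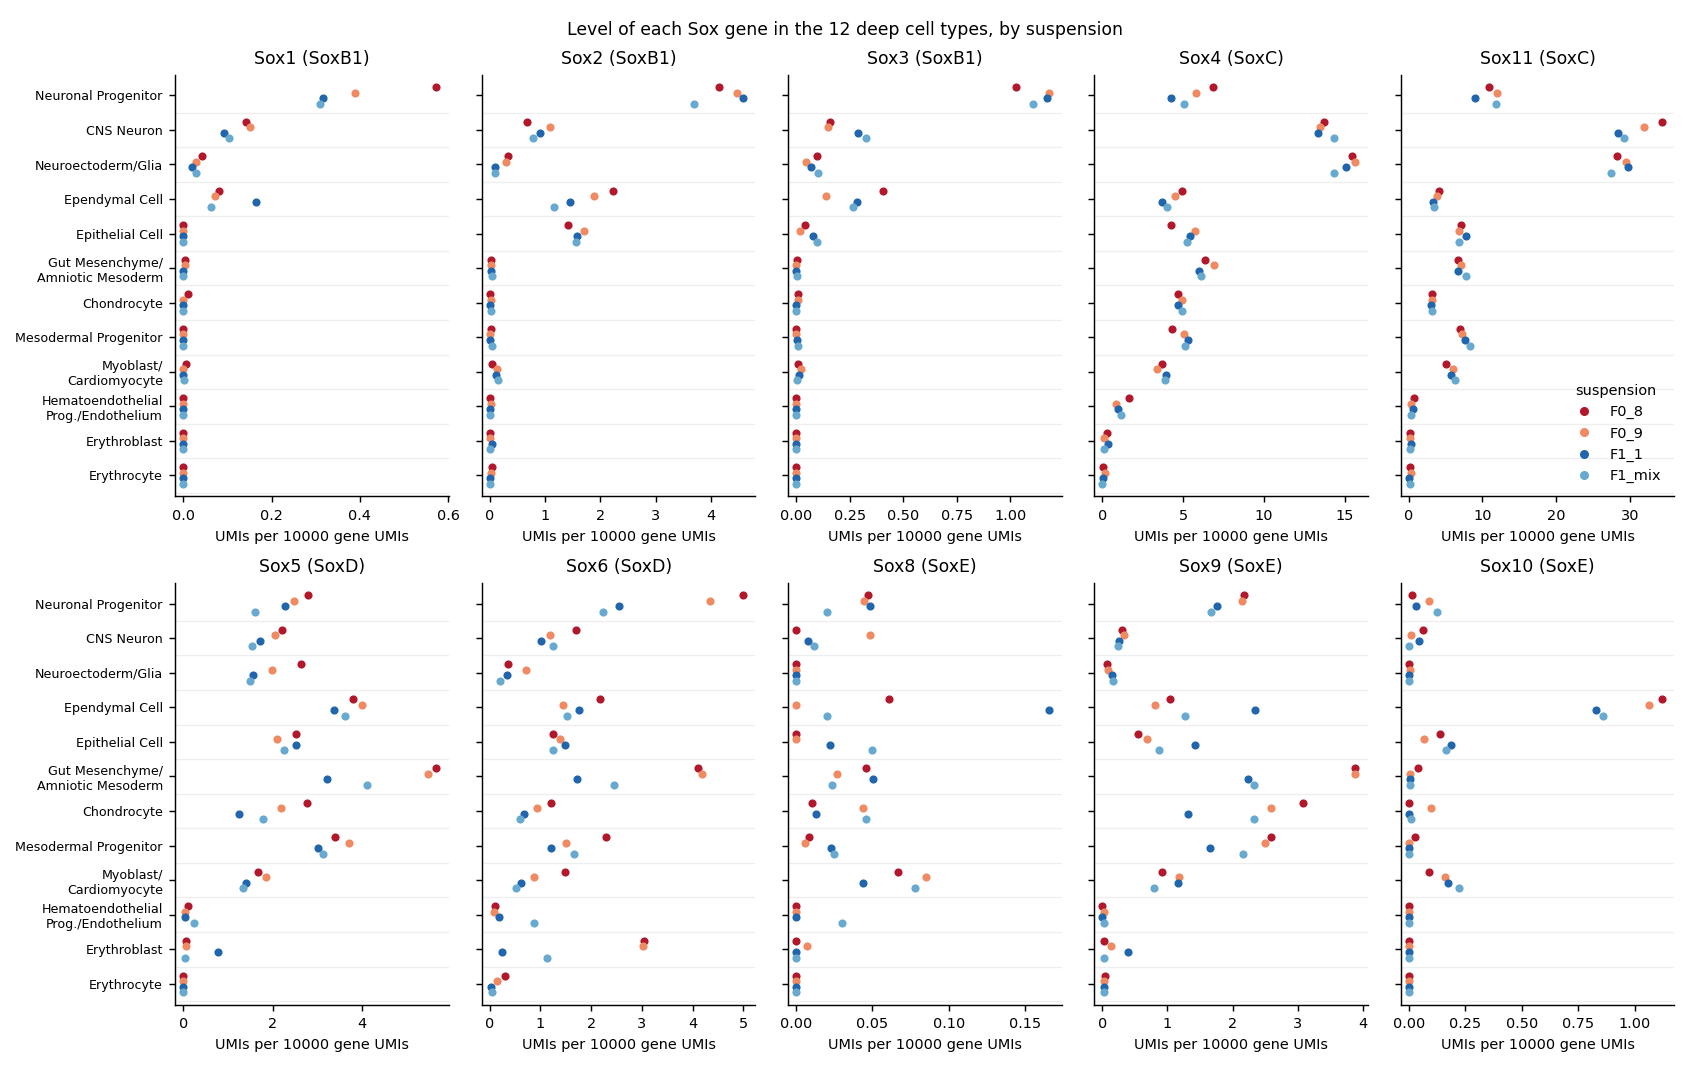
Level of each of the 10 Sox genes (UMIs per 10000 gene UMIs, linear axis, 1 panel per gene with its own scale) in the 12 deep cell types; each point is 1 suspension, red for founders and blue for F1. Sox1, Sox2 and Sox3 peak in Neuronal Progenitor, Sox4 and Sox11 in CNS Neuron and Neuroectoderm/Glia, Sox5 and Sox9 in Gut Mesenchyme/Amniotic Mesoderm, and Sox10 in Ependymal Cell (0.828 to 1.12).

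The SoxC genes were found in most cell types and were highest in neurons. Sox11, needed for the survival and differentiation of young neurons, had 34.3, 31.8, 28.4 and 29.3 UMIs per 10000 in CNS Neuron cells (mean 30.9 ± 2.68, SD, n = 4). Neuroectoderm/Glia cells had 28.3, 29.5, 29.7 and 27.4, a range that overlapped that of the neurons. Neuronal Progenitor came next with 10.8, 12.02, 9.02 and 11.8, below both without overlap. The mesenchymal and epithelial types lay between 2.996 (the lowest of Chondrocyte) and 8.29 (the highest of Mesodermal Progenitor).

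Sox4, its closest relative, had 15.5, 15.7, 15.1 and 14.3 in Neuroectoderm/Glia and 13.7, 13.5, 13.4 and 14.4 in CNS Neuron. These ranges overlapped, and all 8 values lay above those of the next type, Gut Mesenchyme/Amniotic Mesoderm (5.98 to 6.89). In Neuronal Progenitor the level of Sox4 was 6.83, 5.77, 4.26 and 5.04, overlapping the ranges of Gut Mesenchyme/Amniotic Mesoderm, Epithelial Cell and Mesodermal Progenitor. Both genes were low in blood and endothelium: in Erythrocyte cells Sox11 had 0.0326 to 0.254, and in Hematoendothelial Progenitor/Endothelium 0.271 to 0.752.

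Every one of 532 CNS Neuron and 502 Neuroectoderm/Glia cells held a Sox11 UMI. The share in Erythrocyte cells, which should lack it, was 33.3% at a median depth of 24289 UMIs and 13.3% after thinning to 5000, so a share of that size was background for Sox11, whose level in barcodes of 100 to 300 UMIs outside the suspensions was 11.9. The shares thinned to 5000 UMIs were 93.4% in Neuronal Progenitor, 90.1% in Gut Mesenchyme/Amniotic Mesoderm and 70.8% in Chondrocyte. The summed SoxC level in CNS Neuron was 4.72 times the median of the other deep types (44.7 against 9.47; log2 ratio 2.11 to 2.40 in single suspensions).

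**Figure D2:**
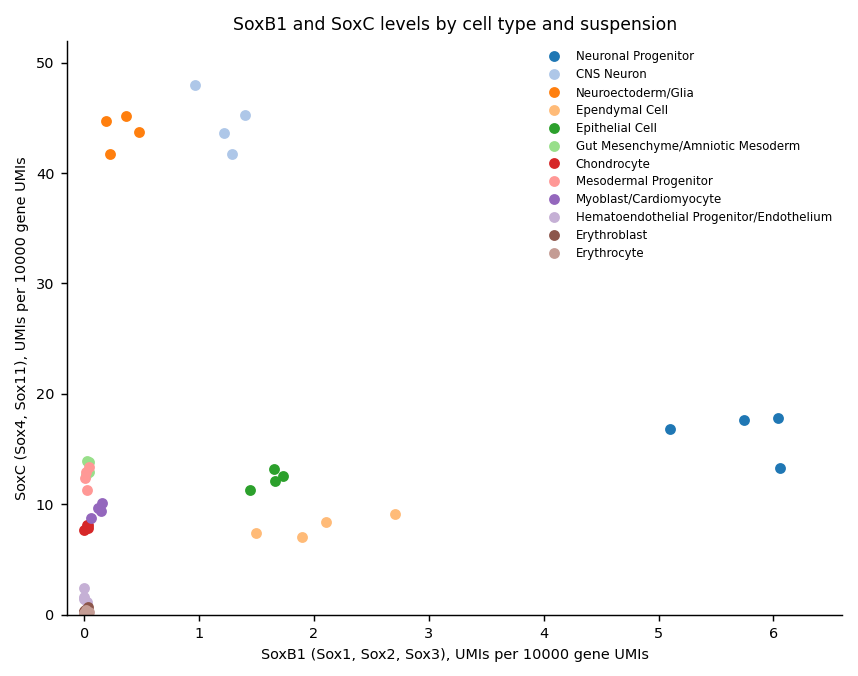
Summed level of Sox1, Sox2 and Sox3 (horizontal) against that of Sox4 and Sox11 (vertical), both in UMIs per 10000 gene UMIs, for each of the 12 deep cell types (colour) and 4 suspensions (points). Neuronal Progenitor lies far right at SoxB1 levels of 5.10 to 6.06, and CNS Neuron and Neuroectoderm/Glia lie at the top at SoxC levels of 41.7 to 48.0, with SoxB1 higher in the neurons than in Neuroectoderm/Glia.

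The neural types were compared pairwise within each suspension. A gene was called when the log2 ratio (0.5 UMI added) had the same sign in all 4 suspensions and a median above 1 in size, among genes with 20 or more UMIs; since the types are clusters of these same cells, no p-value is given. From Neuronal Progenitor to CNS Neuron, 7 of the 10 Sox genes were called, against 14.6% of 12480 genes higher in progenitors and 11.3% higher in neurons. Sox1, Sox2 and Sox3 were higher in the progenitors, with median log2 ratios of 1.65 (1.35 to 1.98), 2.27 (2.03 to 2.63) and 2.34 (1.75 to 2.94). Sox6 (1.45, range 0.85 to 1.86) and Sox9 (2.78, range 2.71 to 2.85), the latter known in the ventricular zone of the neural tube, were higher there as well. Sox4 and Sox11 were lower in the progenitors, by log2 ratios of -1.37 and -1.53 (-1.66 to -1.31), the latter a 2.89-fold difference. Sox5 (0.31) did not differ by that rule, and Sox8 and Sox10, with 44 and 74 UMIs, changed sign between suspensions.

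Against Neuroectoderm/Glia the progenitors differed in 9 of 10 Sox genes, with 18.7% of 12566 genes higher in progenitors and 17.0% higher in Neuroectoderm/Glia. Sox2 was 23.9 times higher in the progenitors (log2 4.58, range 3.60 to 5.43), Sox9 had a log2 ratio of 4.09, Sox3 of 3.67, Sox1 of 3.64 and Sox6 of 3.15. Sox4 (-1.47) and Sox11 (-1.34) were higher in Neuroectoderm/Glia. Sox8 and Sox10 were also called, but Neuroectoderm/Glia held 0 UMIs of Sox8 and 1 of Sox10, so their ratios are not bounds of the difference.

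Between CNS Neuron and Neuroectoderm/Glia, 5 of 8 Sox genes were called, all higher in CNS Neuron, against 6.61% of 11985 genes in that direction and 8.43% in the other. These were Sox1 (1.81), Sox2 (2.46), Sox3 (1.64), Sox6 (1.87) and Sox9 (1.34). Without F0_8 or without F0_9, 4 of the 8 were called, against 15.7% and 15.2% of all genes in either direction. The SoxC genes were not called, with Sox4 at -0.17 (-0.22 to 0.00) and Sox11 at 0.10 (-0.07 to 0.28). Sox12, the third SoxC gene and not one of the 10, was higher in Neuroectoderm/Glia (log2 -1.48, range -1.59 to -1.22). The median log2 ratio of all genes in the 3 neural comparisons was between 0.00 and 0.05.

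The name Neuroectoderm/Glia went against the markers in its cells. Its own list (Pax6, Fabp7, Hes5, Vim, Nes), made of progenitor and radial glial genes, reached 3.62 there and 42.9 in Neuronal Progenitor, and none of the 5 genes was highest in it. The neuron list (Tubb3, Elavl3, Stmn2, Dcx, Map2) reached 86.8 in Neuroectoderm/Glia, 67.8 in CNS Neuron and 6.47 in Neuronal Progenitor. The Sox levels followed the same division, with high SoxC and the lowest SoxB1 and Sox9 of the 3 neural types. Lists of known targets or partners share genes with these marker lists and so partly repeat the same counts. The SoxB1 list shares Pax6, Fabp7, Hes5 and Nes, and the SoxC list shares Tubb3, Dcx and Stmn2. The list of 10 for SoxB1 summed to 31.1 in Neuronal Progenitor (8 of 10 were highest there among deep types), 11.2 in CNS Neuron and 4.88 in Neuroectoderm/Glia. The list of 8 for SoxC summed to 38.1, 108 and 141 in the same types.

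Within CNS Neuron, SoxB1 was uneven. After thinning to 5000 UMIs, 86 of 515 cells kept 2 or more SoxB1 UMIs and 355 kept none. The 2 sets had nearly the same SoxC level, 43.9 and 44.6 UMIs per 10000. The summed neuron markers were at 41.1 in the SoxB1-positive cells and 76.2 in the negative cells, Sox6 at 3.51 and 0.636, and Sox9 at 0.936 and 0.110. The differences of the neuron markers, Sox6 and Sox9 had the same direction in each of the 4 suspensions, while that of SoxC did not (53.6 against 46.9 in F0_8 and 38.7 against 43.00 in F1_1). Cells with SoxB1 UMIs thus also held more Sox6 and Sox9.

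Of the SoxD genes, Sox5 was widespread. Among deep types it was highest in Gut Mesenchyme/Amniotic Mesoderm, with 5.67, 5.48, 3.21 and 4.11. Ependymal Cell (3.38 to 3.997) and Mesodermal Progenitor (3.01 to 3.71) followed, with overlapping ranges. Chondrocyte, named for the tissue in which Sox5 is best known to act, had 2.76, 2.19, 1.26 and 1.77, overlapping the ranges of the 3 neural types. Hematoendothelial Progenitor/Endothelium did not exceed 0.241, and no Sox5 UMI was found in 60 Erythrocyte cells. The shallow types had high Sox5 levels, 7.11 to 8.49 in Hepatocyte and 3.79 to 10.5 in Foregut. Sox5 spans 954 kb on chromosome 6 and Sox6 570 kb on chromosome 7, and the shallow types had a high share of UMIs from long genes, as did free RNA, where Sox5 stood at 5.39 and Sox6 at 4.34; the part of this in the Sox5 and Sox6 levels was not tested.

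Sox6 had 4.99, 4.34, 2.55 and 2.24 in Neuronal Progenitor and 4.10, 4.18, 1.72 and 2.44 in Gut Mesenchyme/Amniotic Mesoderm, ranges that overlapped. CNS Neuron had 1.01 to 1.69, Chondrocyte 0.587 to 1.2 and Neuroectoderm/Glia 0.204 to 0.718. A Sox6 UMI was found in 71.7% of Neuronal Progenitor cells (54.2% after thinning to 5000) and in 13.9% of Neuroectoderm/Glia cells (7.77%). The summed SoxD level in Gut Mesenchyme/Amniotic Mesoderm was 2.72 times the median of the other deep types (7.73 against 2.84), and the ratio was 1.30 to 1.63 on the log2 scale in single suspensions.

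In the erythroid types Sox6, which represses embryonic globin, was present in Erythroblast at 3.03, 3.03, 0.248 and 1.13, and in Erythrocyte at 0.295, 0.137, 0.0326 and 0.0404. Erythroblast was higher in every suspension, by a median of 14.1-fold (log2 3.82, range 2.44 to 4.496). The background for this comparison was large: 78.3% of 8618 genes were called higher in Erythroblast and 0.766% higher in Erythrocyte, the median log2 ratio of all genes was 2.01, and globins took 10.8% of UMIs in Erythroblast and 69.3% in Erythrocyte. Sox6 and Sox5 were the 2 of 5 tested Sox genes called. Sox5 had only 44 UMIs in Erythroblast, 22 of them in the 7 cells of F1_1, and none in Erythrocyte. Across suspensions the Erythroblast level of Sox6 moved with the globin share of the same cells, which was 12.3%, 15.6%, 0.8292% and 2.08% in 64, 52, 7 and 21 cells; its part in the Sox6 level was not tested.

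Sox9, the master regulator of cartilage and a progenitor gene in many organs, was highest in mesenchyme. Its levels in Gut Mesenchyme/Amniotic Mesoderm were 3.88, 3.89, 2.24 and 2.32 (mean 3.08 ± 0.925, SD, n = 4). Chondrocyte had 3.08, 2.59, 1.32 and 2.34, Mesodermal Progenitor 2.58, 2.51, 1.66 and 2.16, and Neuronal Progenitor 2.18, 2.15, 1.76 and 1.67. Neighbours in this order overlapped, so Sox9 did not single out Chondrocyte. It was found in 58.3% of Gut Mesenchyme/Amniotic Mesoderm cells, 71.0% of Neuronal Progenitor cells and 56.4% of Chondrocyte cells, and in 2.63% of Hematoendothelial Progenitor/Endothelium cells.

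The cartilage lists did not single out Chondrocyte either. Col2a1 and Col9a1, collagens of cartilage, were highest in Gut Mesenchyme/Amniotic Mesoderm (3.15 and 1.79, against 2.73 and 1.66 in Chondrocyte), and the late cartilage genes Acan and Matn1 stood at 0.0435 and 0.0108 in Chondrocyte. A list of 10 known chondrogenic targets of Sox9 with Sox5 and Sox6 summed to 8.92 in Gut Mesenchyme/Amniotic Mesoderm, where 7 of the 10 were highest, and to 7.99 in Chondrocyte. Compared with Mesodermal Progenitor, Chondrocyte differed in 1 of 7 Sox genes (backgrounds 6.24% higher and 6.01% lower in Chondrocyte): Sox11 was lower, at log2 -1.27. Sox9 was at 0.08 (-0.33 to 0.25). Compared with Gut Mesenchyme/Amniotic Mesoderm, 3 of 8 were lower in Chondrocyte, against 3.8% of 12533 genes lower and 2.04% higher: Sox6 (log2 -1.91, a 3.75-fold difference), Sox5 (-1.27) and Sox11 (-1.15). Sox9 was at -0.46 (-0.76 to 0.01). Of 48 tests of a Sox gene over the 6 comparisons between types, 27 were called.

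Sox9, Sox5 and Sox6 were also counted together in single cells, each thinned to 5000 UMIs. All 3 were found in 175 of 668 Gut Mesenchyme/Amniotic Mesoderm cells (26.2%), with 27.4%, 32.0%, 19.8% and 21.5% by suspension. Neuronal Progenitor had 19.5%, Mesodermal Progenitor 14.8% and Chondrocyte 11.2% (16.3%, 14.6%, 5.36% and 5.71%). No cell of Neuroectoderm/Glia, Erythrocyte or Hematoendothelial Progenitor/Endothelium held all 3. In Gut Mesenchyme/Amniotic Mesoderm, 83.0% of the 306 cells with Sox9 also held Sox5 or Sox6, against 51.9% of the cells without it, and the direction was the same in each suspension. In Ependymal Cell the shares were 74.4% and 76.1%.

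**Figure D3:**
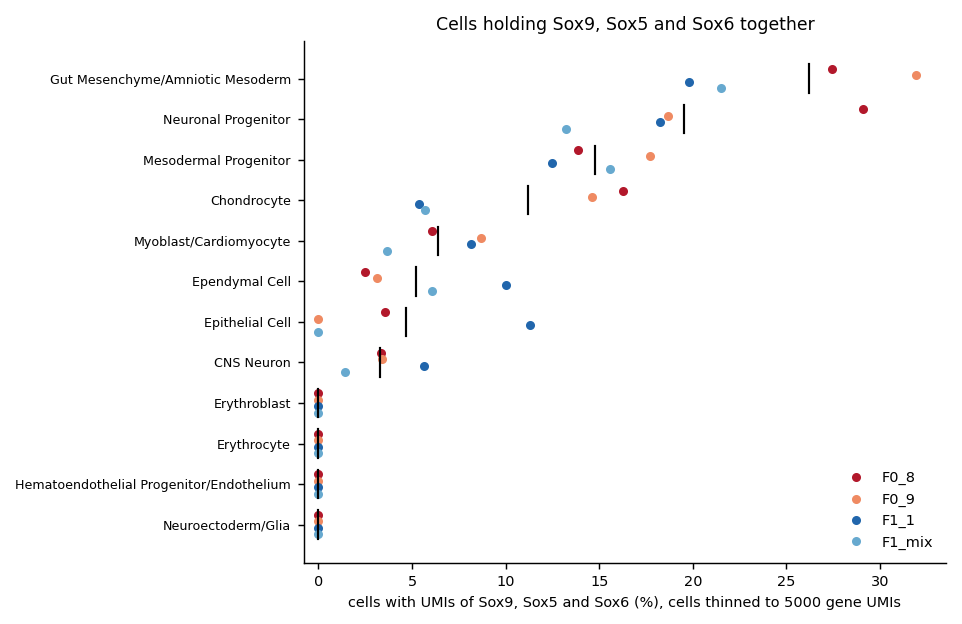
Share of cells (%, linear axis) with UMIs of Sox9, Sox5 and Sox6 together, after thinning each cell to 5000 gene UMIs, in the 12 deep cell types; points are suspensions and black bars the value over all 4. Gut Mesenchyme/Amniotic Mesoderm is highest at 26.2%, and in Chondrocyte both founders (14.6% and 16.3%) lie above both F1 suspensions (5.36% and 5.71%).

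Sox10 had 549 UMIs and a single clear peak, in Ependymal Cell, with 1.12, 1.06, 0.828 and 0.861 (mean 0.968 ± 0.145, SD, n = 4). Every other type was lower without overlap, led by Myoblast/Cardiomyocyte (0.0893, 0.160, 0.175, 0.222) and Epithelial Cell (0.141, 0.0698, 0.188, 0.165). In Neuroectoderm/Glia, the type whose name would include glia, 1 Sox10 UMI was found in 502 cells. Sox8 was rare, with 208 UMIs in all, 82 of them in Myoblast/Cardiomyocyte (0.0669, 0.0849, 0.0438 and 0.0777); its range there overlapped that of Ependymal Cell (0.00 to 0.166). At these counts an order of types for Sox8 could not be read.

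The Sox10 peak came from a minority of cells. Cells with 2 or more Sox10 UMIs numbered 88 of 4309 deep cells (19, 19, 24 and 26 by suspension): 29 were annotated Myoblast/Cardiomyocyte, 27 Ependymal Cell (19.7% of that type), 13 Epithelial Cell and 10 Neuronal Progenitor, with 9 in 4 other types. In Ependymal Cell the positive cells were set beside the 106 cells with no Sox10 UMI. Foxd3, a neural crest factor, was at 2.18 against 0 UMIs, and Erbb3, a neuregulin receptor of the Schwann cell lineage, at 2.02 against 0.0394. Dct, a pigment cell enzyme, was at 6.32 against 0.331, higher in 3 of 4 suspensions. Other Sox genes differed too: Sox5 was at 7.62 against 2.30, Sox9 at 0.140 against 1.73 and Sox2 at 0.800 against 2.04. The positive cells were deeper, with a median of 18973 against 11490 UMIs.

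The positive cells of Myoblast/Cardiomyocyte had a related profile. Foxd3 was at 1.71 against 0.0182, Erbb3 at 1.68 against 0.138 and Fabp7, a gene of early glia, at 9.87 against 0.116 in the 609 cells without Sox10, and Sox2 at 1.60 against 0.0225. Those of Epithelial Cell held 0 UMIs of Foxd3, as did the cells without Sox10, while Erbb3 was at 1.33 against 0.399, higher in 3 of 4 suspensions, and Sox9 at 2.85 against 0.772. The 10 positive Neuronal Progenitor cells had Foxd3 at 1.08 against 0.0024, higher in 2 of 4 suspensions, and Erbb3 at 1.85 against 0.0024, higher in 3 of 4. Sox2 was at 1.85 against 4.26 in them, and Sox9 at 0.431 against 1.95, the latter higher in 1 of 4 suspensions. The summed list of neural crest and Schwann precursor genes stood at 42.4 in the positive cells of Ependymal Cell and 10.2 in the rest, and at 24.4 and 1.21 in Myoblast/Cardiomyocyte. It stood at 47.1 and 14.9 in Neuronal Progenitor, where 905 of the 1094 UMIs of the positive cells were of Fabp7, and at 2.26 and 1.18 in Epithelial Cell, higher in 2 of 4 suspensions. Since the cells were chosen by Sox10, these values are descriptions with no test.

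**Figure D4:**
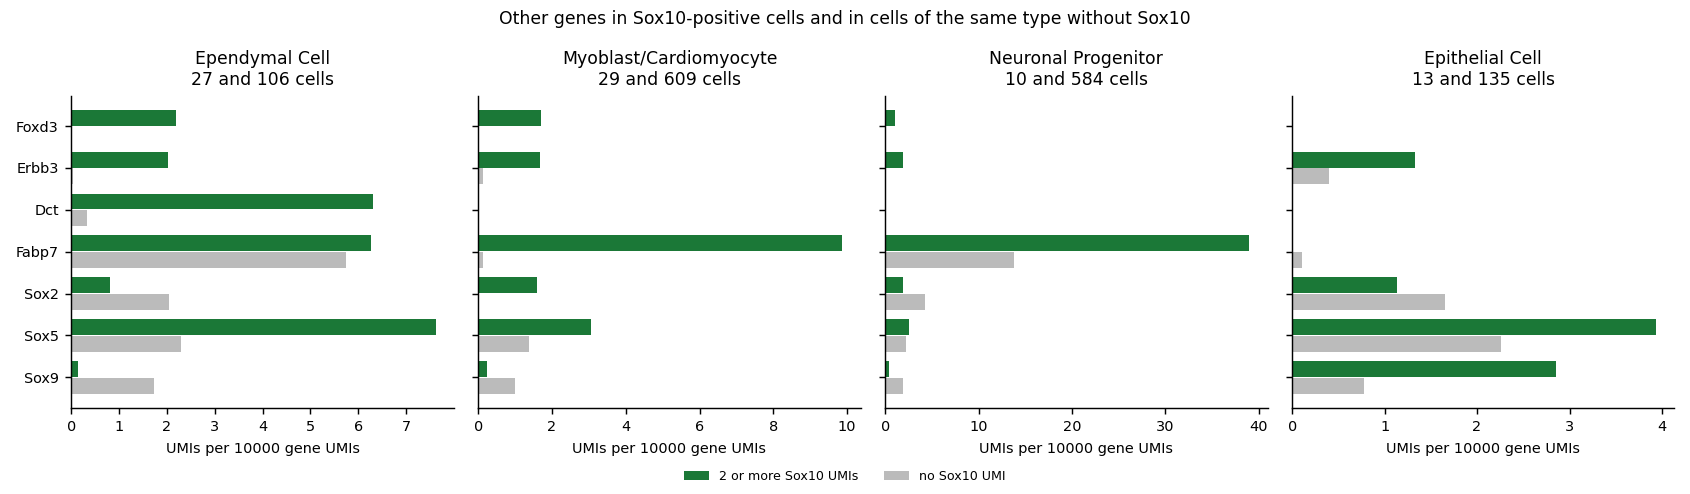
Level (UMIs per 10000 gene UMIs, linear axis from 0, own scale per panel) of neural crest, glial and other Sox genes in cells with 2 or more Sox10 UMIs (green) and in cells of the same type with none (grey), summed over 4 suspensions. Foxd3 and Erbb3 are high in the green cells of Ependymal Cell (2.18 and 2.02) and Myoblast/Cardiomyocyte (1.71 and 1.68) and lower in the grey (at most 0.138), while Sox9 is higher in the green cells of Epithelial Cell only.

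The 9 other Sox genes gave context. The SoxF genes Sox17, Sox18 and Sox7, regulators of vessel formation, were highest in Hematoendothelial Progenitor/Endothelium (0.444, 0.908 and 0.134 over the 4 suspensions). Sox21, a SoxB2 gene that counteracts SoxB1, was highest among deep types in Neuronal Progenitor (0.682). Sox14, the other SoxB2 gene, was highest in Neuroectoderm/Glia (0.220), as was Sox12 (1.32). Sox13, the remaining SoxD gene, was highest among deep types in Neuronal Progenitor (0.228), and Sox15 and Sox30 had 8 and 82 UMIs in all.

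The pattern of each gene over the 12 deep types was compared with that of 10402 genes by Pearson's r on log levels, as a description over 12 points that share 1 library. The 3 most similar genes were Hes5, Sox3 and Fgf15 for Sox1 (r = 0.976 to 0.968) and Otx2, Gldc and Dmrta2 for Sox2 (0.970 to 0.943). For Sox3 they were Hes5, Wscd1 and Nuak2 (0.976 to 0.953), for Sox4 Mex3d, Tcp11l1 and Zfp358 (0.996 to 0.993) and for Sox11 Faxc, Pkia and Zmym2 (0.990 to 0.985). For Sox5 they were Scai, Tet1 and Ubxn7 (0.986 to 0.980), for Sox6 Tmem209, Tasp1 and Dcaf8 (0.911 to 0.901) and for Sox8 Megf10, Nexn and Car14 (0.909 to 0.878). For Sox9 they were Slc1a3, Gas1 and Bmpr1b (0.970 to 0.965), and for Sox10 the first 2 were Moxd1 and Car3 (0.944 and 0.928). Within the family, Sox1 and Sox3 had r = 0.973, Sox4 and Sox11 0.958, Sox5 and Sox4 0.873, Sox5 and Sox11 0.838, Sox5 and Sox9 0.838, Sox8 and Sox10 0.758, and Sox5 and Sox6 0.729. In SoxB1, Sox2 and Sox3 had 0.914 and Sox1 and Sox2 0.803. The members of SoxB1 and of SoxC were thus closer to each other over cell types than the 2 SoxD genes were, though Sox1 and Sox2 only slightly.

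Founders and F1 were compared with the quasi-likelihood test of edgeR on counts summed per suspension, in 13 cell types (at least 20 cells per suspension), adjusted by Benjamini-Hochberg over all genes of a type at 0.05. Each group had 2 suspensions (n = 2), so embryo, preparation and generation cannot be told apart. A level in a type may also differ because the mix of cells within the type does. Over all types, 0.492% of 99241 tests of a gene in a type were higher in founders and 0.26% lower; for the 10 genes it was 6 and 2 of 79. The 6 were Sox9, Sox6 and Sox5 in Gut Mesenchyme/Amniotic Mesoderm, Sox6 in Neuronal Progenitor and in Midgut, and Sox2 in Neuroectoderm/Glia. The 2 were Sox4 and Sox11 in Midgut.

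In Gut Mesenchyme/Amniotic Mesoderm (backgrounds 1.03% higher and 0.595% lower) the chondrogenic trio was higher in founders. Sox9 differed by log2 0.75 ± 0.07 (SE, adjusted p = 0.00177), Sox6 by 0.95 ± 0.12 (adjusted p = 0.00424) and Sox5 by 0.58 ± 0.09 (adjusted p = 0.0146). Their levels, given above, did not overlap between the groups, and the calls of Sox9 and Sox6 held in each of 9 alternatives. Of these, the setting of 50 or more cells repeated the main test in this type and adds nothing. That of Sox5 was lost without F0_8 (adjusted p = 0.142) and without F0_9 (0.08). Of the chondrogenic target list, 5 of 8 tested genes were also higher in founders, Col9a3 by 1.69, Col9a2 by 1.38, Col9a1 by 0.73, Col11a1 by 0.68 and Col2a1 by 0.50, and none lower, with a median of 1.05 against -0.0020 over all genes. In Chondrocyte 4 of 6 targets were higher (Col9a3 by 2.60; backgrounds 0.802% higher and 0.362% lower), and in Mesodermal Progenitor 3 of 7 (0.723% and 0.348%), while in neither did 1 of the 10 Sox genes pass with edgeR: Sox9 was at 0.61 ± 0.19 (adjusted p = 0.191) and 0.40 ± 0.11 (adjusted p = 0.119). Some alternatives did call them, all higher in founders. In Chondrocyte these were Sox5 without F0_9 (adjusted p = 0.0475) and without F1_mix (2.2e-05), Sox6 without F1_1 (0.026) and Sox9 without F1_mix. In Mesodermal Progenitor they were Sox6 with no filter on low counts (0.00785) and without F1_mix (0.000397), and Sox9 in the same 2 settings.

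Other marker lists were also set side by side between these groups. With 2 suspensions per group, both founders often lie outside the F1 range by chance. The share over all genes was not computed, so the counts of lists are descriptions. In Gut Mesenchyme/Amniotic Mesoderm the neuron list was at 1.80, 1.42, 0.931 and 1.06. Of 18 lists with 20 or more UMIs there, both founders lay above both F1 suspensions in 7 and below in 4, and 1 of the 7 was the Chondrocyte list, which holds Col2a1 and Col9a1 of the targets above. In Chondrocyte the founders lay above in 5 of 17 lists and below in 3, among them the Epithelial Cell list (0.244 and 0.380 against 0.922 and 0.748) and the list of progenitor and glial genes (10.1 and 10.4 against 16.1 and 13). In Mesodermal Progenitor they lay above in 6 of 16 and below in 3. Stmn2, a neuronal gene on the SoxC list, was higher in founders in Gut Mesenchyme/Amniotic Mesoderm (2.74 ± 0.24, adjusted p = 0.00164). The part of these lists in the Sox differences was not tested.

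In Neuronal Progenitor (backgrounds 0.45% and 0.206%) Sox6 was higher in founders by log2 0.93 ± 0.09 (adjusted p = 0.0077), at 4.99 and 4.34 against 2.55 and 2.24, and the call held in 9 of 9 alternatives. Here too the setting of 50 or more cells only repeated the main test. Of 16 marker lists in these cells, both founders lay above both F1 suspensions in 4 and below in 1. Counts of this size can arise by chance with 2 suspensions per group. The list of Mesodermal Progenitor was at 0.412, 0.368, 0.176 and 0.161, that of Ependymal Cell at 3.38, 3, 2.62 and 2.56, and that of neural crest at 16, 18.7, 14.3 and 14.6, while the list of progenitor and glial genes overlapped. Their part in the Sox6 difference was not tested. Over the 13 types Sox6 was nominally higher in founders in 12, with a median of 0.53, and Sox5 in 11, with a median of 0.37; 3 and 1 of these passed. The sign was not stable in some types where neither passed: without F0_8 it turned for Sox6 in Foregut (from 0.38 to -0.59) and Ependymal Cell (0.13 to -0.19) and for Sox5 in Endodermal Progenitor (0.34 to -0.40), and without F0_9 for Sox6 in Endodermal Progenitor (0.38 to -0.04). Both are very long genes, and long genes as a class moved in this direction. Of tests of genes over 100 kb, 1.74% were higher in founders and 0.416% lower, and the median difference of genes over 500 kb was between 0.10 and 0.40 in the 13 types, 0.37 in Neuronal Progenitor and 0.16 in Gut Mesenchyme/Amniotic Mesoderm. The share of UMIs from genes over 100 kb in Neuronal Progenitor was 14.9%, 14.5%, 13.02% and 12.3%, and in Gut Mesenchyme/Amniotic Mesoderm 18.3%, 18.0%, 17.1% and 17.2%. Median depth was lower in both founders, at 12200, 12904, 14675 and 14116 UMIs in Neuronal Progenitor. In Gut Mesenchyme/Amniotic Mesoderm it was 12354, 13164, 14071 and 14282. The part of gene length and of depth in the differences of Sox5 and Sox6 was not tested. Sox9, at 5.55 kb, is a short gene.

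Sox2 in Neuroectoderm/Glia (backgrounds 0.656% and 0.495%) was at 0.339, 0.289, 0.101 and 0.0948, higher in founders by log2 1.68 ± 0.27 (adjusted p = 0.0354). The call was lost without F1_1 (0.0988), without F1_mix (0.178) and with DESeq2 (adjusted p = 0.224). In these cells the neuron list was lower in both founders (79.7 and 83.7) than in F1 (91.7 and 92.1), and so were the list of progenitor and glial genes (2.52 and 2.42 against 5.31 and 4.25) and the list of sensory or autonomic neurons (2 and 1.86 against 3.79 and 3.78). Of 13 lists with 20 or more UMIs, both founders lay above both F1 suspensions in 3 and below in 6. Such counts can also arise by chance with 2 suspensions per group. Among the 3 was the Foregut list, which holds Sox2 itself, with 136 of its 295 UMIs in these cells. The part of the other lists in the Sox2 difference was not tested. In Neuronal Progenitor, where Sox2 is high, it did not pass (0.02 ± 0.10, adjusted p = 0.948), and the difference between the 2 types was not tested.

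In Midgut (backgrounds 1.24% and 0.555%), a shallow type, Sox4 was at 2.11, 1.33, 5.47 and 5.29 and Sox11 at 5.31, 3.76, 9.20 and 12.6. They were lower in founders by log2 -1.35 ± 0.33 (adjusted p = 0.00481) and -1.02 ± 0.28 (adjusted p = 0.0212). Pou3f1, on the SoxC list, was lower too (-4.16). The neuron list was at 24.1, 25.4, 29.7 and 36.9 in the same cells, lower in founders as the SoxC genes were, and its part was not tested. The Sox4 call was lost without each of the 4 suspensions in turn (adjusted p = 0.0543 to 0.155), that of Sox11 without F0_8, F0_9 or F1_mix (0.0962, 0.268 and 0.34) and with DESeq2 (adjusted p = 0.0517). Sox6 in Midgut was at 3.84, 2.88, 1.66 and 1.95, higher in founders by log2 1.13 ± 0.34 (adjusted p = 0.0462), and that call was lost without F0_8 (0.838), F1_1 (0.497) or F1_mix (0.401), with no filter on low counts (0.604) and with DESeq2 size factors (adjusted p = 0.0516).

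**Figure D5:**
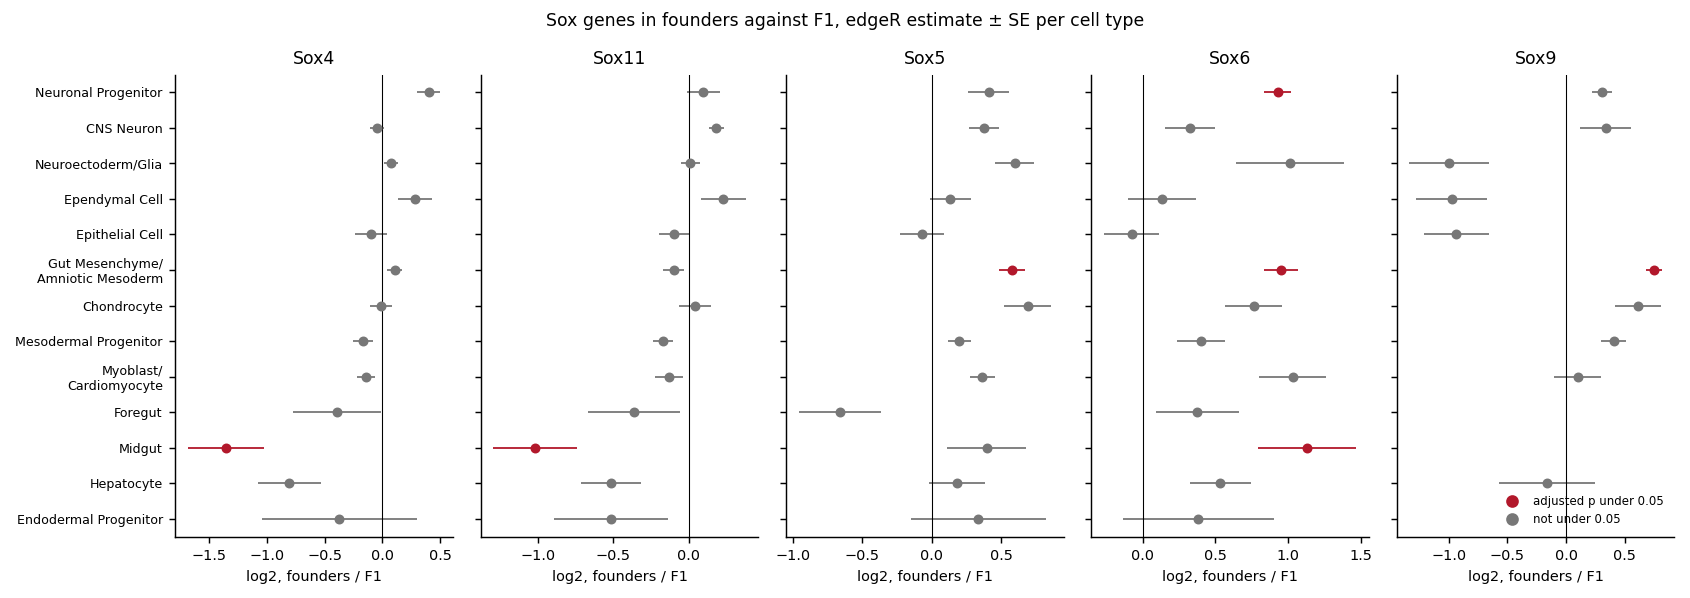
Difference between founders and F1 (log2, edgeR estimate ± SE, n = 2 suspensions per group) of Sox4, Sox11, Sox5, Sox6 and Sox9 in each of the 13 tested cell types where the gene passed the count filter; red points had an adjusted p under 0.05. Sox6 lies right of 0 in 12 of 13 types, and the red points of Sox4 and Sox11 are those of Midgut.

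Sox1, Sox3, Sox8 and Sox10 did not pass with edgeR and the filter on low counts in the types they were tested in (2, 4, 1 and 3 types). In Ependymal Cell and Hepatocyte few genes of any kind passed (0% higher and 0.0134% lower, and 0.0679% higher and 0% lower), and in Endodermal Progenitor, Epithelial Cell and Myoblast/Cardiomyocyte none did. Sox6 in Myoblast/Cardiomyocyte (log2 1.03, adjusted p = 0.308) was called higher in founders with DESeq2 (adjusted p = 0.0185), with no filter (0.0172) and without F0_9 (0.000192), and Sox9 in Ependymal Cell (-0.97, adjusted p = 0.458) and in Epithelial Cell (-0.93, adjusted p = 0.393) was called lower with no filter and without F1_mix. Called higher in founders under some alternatives were also Sox11 in CNS Neuron and Sox4 in Neuronal Progenitor (both with no filter and without F1_mix), Sox5 and Sox6 in Neuroectoderm/Glia (both with no filter, Sox5 without F0_9 and Sox6 without F0_8), and, without F1_1, Sox5 in Neuronal Progenitor and Sox6 in Erythroblast. Of Sox1, Sox3, Sox8 and Sox10, Sox3 in CNS Neuron (backgrounds 0.474% and 0.303%) had the lowest adjusted p, at 0.156 and 0.151 in founders against 0.290 and 0.326 in F1 (log2 -1.02 ± 0.24, adjusted p = 0.112), and was called with no filter on low counts. Of the other target lists, Nes was lower in founders in Foregut (-1.55; backgrounds 1.39% higher and 0.288% lower), while no gene of the SoxB1 list passed in Neuronal Progenitor, where all 10 were tested, or in CNS Neuron.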

How the data were processed

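Levels were computed from UMI counts in the matrices that the authors deposited per suspension. Per the file headers these were made with Cell Ranger 7.2.0 against GRCm38 (mm10) with EGFP added, and are counts not corrected for ambient RNA. The paper's list of resources names the same release, while its single-cell methods name an earlier one. Per the methods, the authors ran SoupX, DoubletFinder, RECODE and Seurat before clustering without EGFP; no further doublet caller was run. The methods name a filter at 5% mitochondrial transcripts, but the cell types called shallow here exceed it in the deposited table. The suspension, cell type, total counts and mitochondrial percent of each cell came from the table the authors deposited, of which 18 columns were not used.

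Single values of some listed genes are not reported here. The 10 genes, the marker and target lists and the comparisons were chosen with earlier results of these data known. Named were the 10 genes, the other Sox genes, the listed markers and targets, and for each gene the 3 genes with the most similar pattern among those with 500 or more UMIs (0.05 added before the log). Gene lengths were from RefSeq on GRCm38.p6. Oligo counts stayed out of totals. A type was shallow where its median depth was over 3 times lower than that of all cells. Thinning drew 2000, 5000 or 10000 UMIs without replacement. Free RNA was read from 53828 barcodes of 100 to 300 UMIs outside the suspensions. Founder against F1 used edgeR 4.0.16 (TMM, filterByExpr) in R 4.3.3, with DESeq2 1.42.0, DESeq2 size factors, no filter, 50 or more cells, cells under 5% mitochondrial UMIs and each suspension left out as alternatives. The model scripts were tested on simulated data. Python 3.11.15, numpy 2.4.6, pandas 2.3.3, scipy 1.17.1 and matplotlib 3.10.9 were used.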

Additional observations from a re-analysis of the deposited data

Results flagged for a closer look

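The summed SoxD level in Hematoendothelial Progenitor/Endothelium stood apart in 1 suspension: F1_mix had 1.113 UMIs per 10000, from 37 UMIs in 18 cells, and the other 3 suspensions 0.122 to 0.207. Chance would set a sample apart in about 1 in 20 groups of 4, and 41 such groups were examined.

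Several genes lay above both F1 suspensions in both founders in some deep types and below them in others, counting only deep types in which the gene had 50 or more UMIs over the 4 suspensions. With 2 suspensions per group, such a separation in either direction often arises by chance. Its share over all genes was not computed, so the counts are descriptions. These differences between types were not tested. Sox4 was higher in both founders in 4 types (Ependymal Cell, Gut Mesenchyme/Amniotic Mesoderm, Neuroectoderm/Glia and Neuronal Progenitor) and lower in 2 (Mesodermal Progenitor and Myoblast/Cardiomyocyte). Sox11 was higher in 3 (CNS Neuron, Chondrocyte and Ependymal Cell) and lower in 1 (Mesodermal Progenitor). Sox9 was higher in 5 (CNS Neuron, Chondrocyte, Gut Mesenchyme/Amniotic Mesoderm, Mesodermal Progenitor and Neuronal Progenitor) and lower in 3 (Ependymal Cell, Epithelial Cell and Neuroectoderm/Glia). Sox10 was higher in 1 (Ependymal Cell) and lower in 1 (Myoblast/Cardiomyocyte). Of the deep types left out for these 4 genes, Sox4 and Sox11 were higher in both founders in Erythrocyte (11 and 25 UMIs) and Sox10 was lower in Epithelial Cell (38 UMIs).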

How the results depend on the processing

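No called result turned its direction under an alternative, while 7 values of Sox5 and Sox6 between founders and F1 that had not passed changed sign when 1 suspension was left out. The SoxC ratio stayed within 1 SD over suspensions in each alternative run. The log2 ratio of SoxE in Gut Mesenchyme/Amniotic Mesoderm over the median of the other deep types was 1.60, but spread from 0.79 to 2.54 over suspensions, so that its range of 1.31 to 2.02 over alternatives says little of its stability. The log2 ratio of SoxB1 was 7.12 in cells thinned to 5000 UMIs and that of SoxD 1.62 after 5% of the free RNA level was subtracted. For SoxB1 this subtraction gave no ratio, because it left no level at the median of the other types. Of 48 tests of a Sox gene between types, 13 in place of 27 were called at a median log2 ratio above 2, where 0.758 to 49.4% of all genes were called by comparison in place of 5.84 to 79.1%. Founder against F1 gave 746 calls over all genes, 429 with DESeq2, 3154 with no filter on low counts, and 511 to 1748 without 1 suspension, where the lone suspension is assumed to vary like the other group. The 8 calls of the 10 Sox genes became 5 with DESeq2, 17 with no filter, 5 in types with 50 or more cells, 5 in cells under 5% mitochondrial UMIs, and 5 to 12 without 1 suspension. The settings of 50 or more cells and of cells under 5% mitochondrial UMIs covered 9 cell types in place of 13, without Midgut. Their 5 Sox calls were those of the main setting outside Midgut. The cause of the other shifts was not tested. No paired analysis was possible because the suspensions share no replicate numbers between founders and F1. Depth limits Sox1, Sox8 and Sox10, which had 461, 208 and 549 UMIs, and the shallow types.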
